A study of Rattus norvegicus with 2 samples.

Results

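Peaks of histone H3 lysine 18 lactylation (H3K18la) that the deposited annotation places at a transcription termination site numbered 479 of 28706, or 1.67% of the peaks of the library (95% Wilson interval 1.53 to 1.82%). They were chosen by their annotation class alone, which begins with TTS, and were joined to the peak list by peak name. The class rests on position, and neither the strength nor the width of a peak was used to choose them. All 479 were found in both files, and no filter on strength or width was applied.

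The chromatin came from myocardium of male Wistar rats that had undergone abdominal aorta constriction (AAC), a pressure-overload surgery in which the vessel is tied together with a wire above the renal arteries. There are 2 samples, a chromatin immunoprecipitation (ChIP-seq) library and an input library, both numbered 3 and both from operated rats. The antibody is given by vendor and catalogue number, and its target was taken from the series title. The labels do not say how many animals gave the chromatin or whether any of them received vagal stimulation, and no unoperated group was analysed here. The values below come from the ChIP library, so none of them has a replicate error. The input library was not analysed here. Sequencing depth is unknown, and a missing peak means only that none was called.

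Lactylation is an acyl mark that cells place on histone lysines using a donor derived from lactate, and H3K18la has mostly been described at active promoters and enhancers. A transcription termination site is the annotated end of a transcript, where the RNA is cleaved and polyadenylated or, for small RNAs, otherwise processed. Because genes can be short or closely packed, the end of one transcript may lie beside its own start or beside the start of the next gene.

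Several of the strongest of these peaks also covered the start of a gene, so the start sequences of 3 such genes are shown first. Dusp1 encodes a phosphatase that switches off MAP kinases, Tpm4 a tropomyosin of the actin cytoskeleton, and Hspb6 a small heat shock protein of muscle. Each sequence is the RefSeq promoter of assembly GRCr8, from 250 bp before to 50 bp after the annotated start, and that start may differ from the rn6 gene model behind the peaks. The windows are chr10:17184603-17184902 (plus strand) for Dusp1, chr16:17732434-17732733 (minus strand) for Tpm4 and chr1:94934122-94934421 (plus strand) for Hspb6. Capitals mark matches on either strand to 4 promoter motifs, and matches may overlap. The letters searched were TATAAA for the TATA box, which positions the general transcription machinery. The CCAAT box, bound by the factor NF-Y, was searched by its own letters. The letters GGGCGG stand for the GC box, bound by Sp1 and related factors. The cAMP response element, bound by CREB, was searched as TGACGTCA.
Dusp1: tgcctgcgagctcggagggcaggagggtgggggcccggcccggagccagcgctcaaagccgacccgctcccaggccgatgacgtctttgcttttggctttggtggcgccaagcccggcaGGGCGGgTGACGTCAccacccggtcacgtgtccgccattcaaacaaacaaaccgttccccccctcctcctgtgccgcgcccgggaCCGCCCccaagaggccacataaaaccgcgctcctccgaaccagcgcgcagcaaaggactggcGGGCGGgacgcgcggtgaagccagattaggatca
Tpm4: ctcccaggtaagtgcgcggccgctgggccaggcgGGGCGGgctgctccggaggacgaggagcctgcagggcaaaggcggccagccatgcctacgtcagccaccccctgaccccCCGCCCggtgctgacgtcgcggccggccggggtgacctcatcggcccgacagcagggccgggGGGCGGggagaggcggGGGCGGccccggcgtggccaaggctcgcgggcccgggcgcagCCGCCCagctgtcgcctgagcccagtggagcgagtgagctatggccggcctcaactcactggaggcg
Hspb6: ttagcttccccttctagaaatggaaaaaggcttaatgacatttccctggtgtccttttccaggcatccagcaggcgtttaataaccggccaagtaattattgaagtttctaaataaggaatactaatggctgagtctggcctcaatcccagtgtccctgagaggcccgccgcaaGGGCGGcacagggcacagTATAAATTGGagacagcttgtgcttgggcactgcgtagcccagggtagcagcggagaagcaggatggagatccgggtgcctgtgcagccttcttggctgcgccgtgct
The Dusp1 window holds 31 CpG dinucleotides, 3 GC boxes and 1 cAMP response element. The Tpm4 window holds 33 CpG and 5 GC boxes. Hspb6 has 10 CpG with 1 TATA box, 1 CCAAT box and 1 GC box, the first of these running into the CCAAT match read on the opposite strand. Of all 33469 promoter windows of this length in the table, 14.2% hold the TATA box on either strand, 37.5% the CCAAT box, 33.1% the GC box and 1.83% the cAMP response element. Promoters were found in the table for 19 of the genes whose start a termination-site peak reached. These held a median of 23 CpG, between 9 and 40, against a median of 7 over all windows, with or without a peak. Starts reached by peaks of other classes were not counted, so these values do not set the class apart. A match describes letters and not a bound site.

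Small RNA genes form the other group in which end and start nearly coincide, and the mature RNAs of 3 microRNA genes with a peak at their end are shown with the seed (bases 2 to 8) in capitals, from RefSeq GRCr8. Mir1b belongs to the miR-1 family of muscle.
rno-miR-1b: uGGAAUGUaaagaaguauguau
rno-miR-107-3p: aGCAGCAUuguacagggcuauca
rno-miR-138-5p: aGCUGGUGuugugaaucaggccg
rno-miR-138-2-3p: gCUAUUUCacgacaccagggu
The 4 seeds differ from each other. The peak at the end of Mir1b (rn6 chr3:175770108-175770696) had a fold enrichment of 4.32 and its centre lay 686 bp downstream of the Mir1b start. The peak at Mir107 (rn6 chr1:253127662-253127861) had a fold enrichment of 4.67 at 575 bp, and that at Mir138-2 (rn6 chr19:11149200-11149410) 3.41 at 524 bp. These peaks were 589, 200 and 211 bp wide in the same order, so none reached the start of its gene. Whether they overlap the mature RNAs was not measured. All coordinates of peaks below are rn6 positions as deposited.

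As a class, termination-site peaks were as strong and as wide as the rest of the list. Fold enrichment, the authors' ratio of each peak to the local background of the caller, ranged from 2.43 to 9.98 around a median of 4.16 (quartiles 3.56 and 4.77), and the median over all peaks was 4.13. Median width was 384 bp, from 200 to 8344 bp, beside 375 bp over all peaks. The median of −log10 q was 3.98 against 3.89. A fold enrichment of at least 6 was reached by 39 of the 479 (8.14%, 95% Wilson interval 6.01 to 10.9%), and the share over all peaks, 6.31%, lies inside that interval. Likewise 39 peaks (8.14%) were 1000 bp or wider, against 9.22% of all peaks.

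Position relative to start sites differed from that of the list as a whole, in part through small RNA ends. The centre lay within 1000 bp of an annotated start in 154 of 479 termination-site peaks (32.2%, interval 28.1 to 36.5%), against 19.4% of all peaks, and the intervals do not overlap. The same share was 62.3% for exon peaks, 15.7% for intron peaks and 0% for intergenic peaks, which is partly how the classes are drawn. Small RNA ends, which lie close to their own start, raised the share of the termination-site class. They numbered 72 of the 479, and 60 of the 154 were small RNA ends nearest to their own start. Among the other kinds of end the share was therefore below 32.2%. How much of the difference from all peaks remains without small RNA ends was not tested. Every one of the 154 lay downstream of its start, because peaks close before a start are given to the promoter class, and the smallest distance among the 479 was 104 bp. The bounds of 37 peaks (7.72%, interval 5.66 to 10.5%) reached across the nearest start, against 6.19% of all peaks, a share inside the interval. Just inside the limit of 1000 bp lay peaks at the small nuclear RNA U7 (997 bp, fold enrichment 6.51) and at the gene models AABR07063290.1 (989 bp) and AABR07060119.1 (987 bp). Just outside were the peak at the end of Slc35g3 with Polr2a as the nearest start (1008 bp upstream, 3.74) and peaks at AABR07027575.1 (1048 bp) and Rab14 (1049 bp, 4.06).

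**Figure D1:**
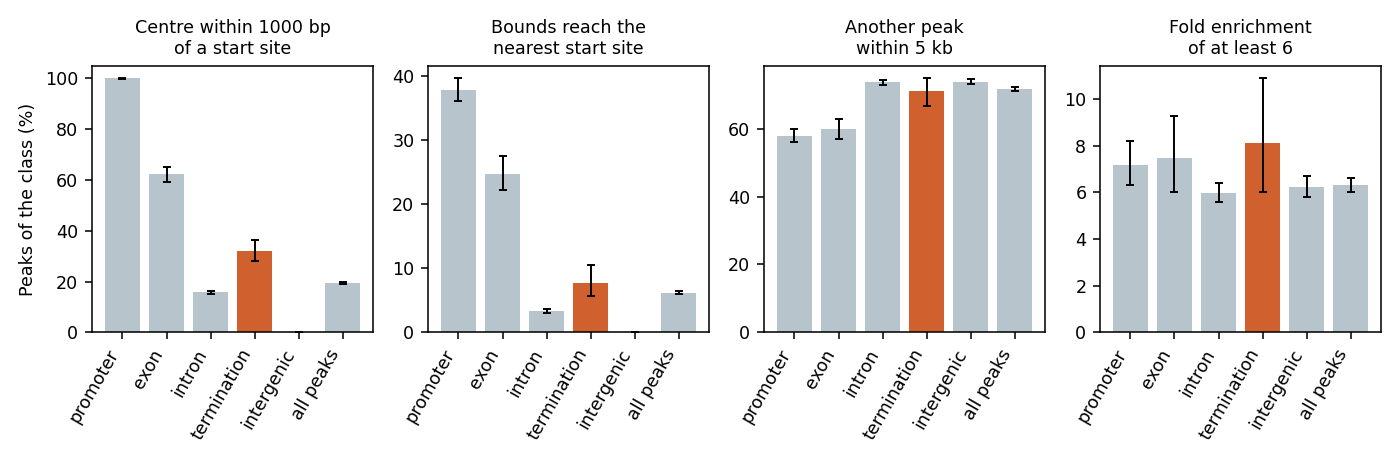
Share of peaks (%) in each annotation class with the centre within 1000 bp of a start site, with bounds that reach the nearest start, with another peak within 5 kb, and with a fold enrichment of at least 6. Whiskers are 95% Wilson intervals, which cover counting error only. The termination-site class (orange) stands above all peaks for nearness to a start (32.2% against 19.4%) and close to them in the other 3 panels. Small RNA ends raise the 32.2%, since 60 of the 154 peaks near a start were small RNA ends nearest to their own start. The difference from all peaks is smaller without small RNA ends.

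The central comparison was between the transcript whose end defines each peak and the gene with the nearest start, which is the gene name a reader of the annotation sees. For 267 of 479 peaks (55.7%, interval 51.3 to 60.1%) both were the same gene, 248 of them the same transcript and 19 another transcript of that gene. For 111 peaks (23.2%, interval 19.6 to 27.2%) the nearest start belonged to a different gene. For the remaining 101 (21.1%) the ending transcript could not be tied to a gene with the deposited columns. Among the 378 resolved peaks the nearest start was that of a different gene in 29.4% (interval 25 to 34.1%). An end of the same transcript is always resolved by this route, so the unresolved 101 hold none of them. The 29.4% may therefore be too low, by an amount that its interval does not cover. Of the 101 unresolved peaks, 38 lay upstream of the nearest start, beside 59 of the 111 with a different gene.

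**Figure D2:**
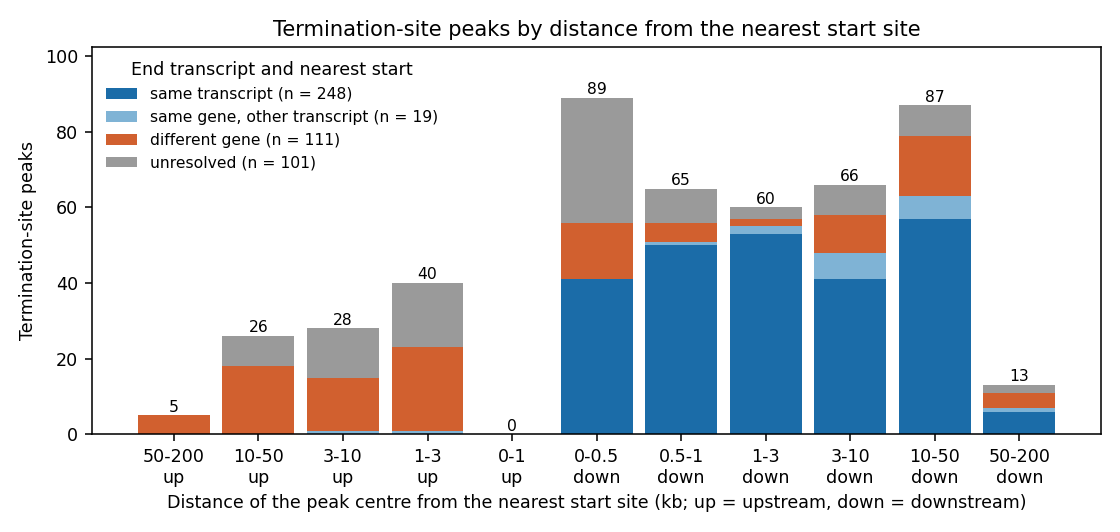
Number of termination-site peaks by distance (kb) of the peak centre from the nearest start site, upstream to the left and downstream to the right, coloured by whether the ending transcript and the nearest start belong together. Peaks upstream of the nearest start were nearly all at ends of a different gene or of an unresolved transcript, with 2 exceptions, and no peak lay within 1 kb upstream.

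The groups sat at different distances. Peaks at the end of the transcript whose start was nearest were all downstream of it, at a median of 1903 bp and between 104 and 188815 bp. Where the nearest start was that of a different gene, 59 of 111 peaks lay upstream of it and 52 downstream, with a median of -1168 bp. In 57 of these 111 both strands could be worked out from the distances of other peaks. The ending gene and the next gene were on the same strand, with the next start ahead, in 36 of the 57, and these had a median fold enrichment of 4.51. In 18 the genes were on opposite strands and the peak lay past the other start, with a median of 3.83, and in 3 the strands were the same and the peak lay past the other start. Where the own start of the ending gene was known (65 of 111), it was a median of 25.9 kb away. Median fold enrichment was 4.14 for the same transcript, 4.22 for different genes and 4.20 for unresolved transcripts, well within the quartiles of the class.

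The gene named by the nearest start was thus often not the gene that ended at the peak, also among the strongest peaks. The end of Armc9, which encodes a ciliary protein, had a fold enrichment of 9.43 at chr9:93296460-93297294, and the annotation names B3gnt7, a glycosyltransferase gene whose start was 29406 bp further on. The peak at the end of the lincRNA model AABR07024856.1 (chr16:19398209-19400068, 1860 bp wide) had a fold enrichment of 8.64 and reached the start of Tpm4, whose centre distance was 713 bp. The end of Tbc1d10a, a Rab GTPase-activating protein gene, had a peak of 7.89 at chr14:84445443-84446128, 2100 bp before the start of Castor1, the arginine sensor of the mTORC1 pathway. At the last of these the start of Castor1 lay ahead on the same strand.

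The end of Clec1a carried a peak of 7.396 whose nearest start was that of Clec9a, both C-type lectin receptors, 16911 bp away on the opposite strand. Thada ended at a pair of peaks, of 7.396 and 4.225, the stronger lying 1168 bp before the start of Zfp36l2, which encodes a protein that promotes decay of AU-rich mRNAs. A peak of 6.72 and 2914 bp covered the end of Midn, 9238 bp before Cirbp, the cold-inducible RNA-binding protein. Further peaks lay at the end of AABR07065124.2, a lincRNA, before Irf2bpl (6.34), the end of the DNA polymerase alpha subunit gene Pola2 before Cdc42ep2 (6.09, 3305 bp wide), and the end of Cln8 past the start of AABR07026509.1 (6.06). At Thada, Midn, AABR07065124.2 and Pola2 the named start lay ahead on the same strand, and at Clec1a and Cln8 it was on the opposite strand.

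Where end and start belonged to the same gene, the centres of the 6 strongest peaks lay between 530 and 13153 bp from the start. Hrct1 had the highest fold enrichment of the class, 9.98, in a peak of 4473 bp (chr5:59226751-59231223) that ran from 1448 bp before its start to 3024 bp after it. Dusp1 had 9.32 in the widest peak of the class, 8344 bp (chr10:16969275-16977618), from 1351 bp before its start to 6992 bp after it. Both peaks cover the start of their gene and carry the termination class, with centres 788 and 2820 bp past that start.

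Gimap6, of a GTPase family expressed in lymphocytes, had a peak of 7.44 at its end, 6640 bp from its start. The lincRNA model AC134224.3 had one of 7.24 and 3291 bp, and Stard4, a cholesterol transfer protein gene, one of 7.11 at 13153 bp. The 6 widest peaks were those of Dusp1, Hrct1, Pola2, AC134224.3, Midn and Btd, the biotinidase gene, where a peak of 2228 bp had a fold enrichment of 4.57. A 5S rRNA model had the next strongest same-gene peak, 6.99 at 530 bp. The peaks farthest from their own gene's nearest start were those of Dysf, which encodes the membrane repair protein dysferlin (188815 bp, fold enrichment 4.22), Samd4a (79458 bp, 3.38), the lincRNA AABR07049288.1 (77880 bp, 3.20) and Mrc2, a collagen receptor gene (61679 bp, 4.51). None of these distant ends reached a fold enrichment of 6.

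**Figure D3:**
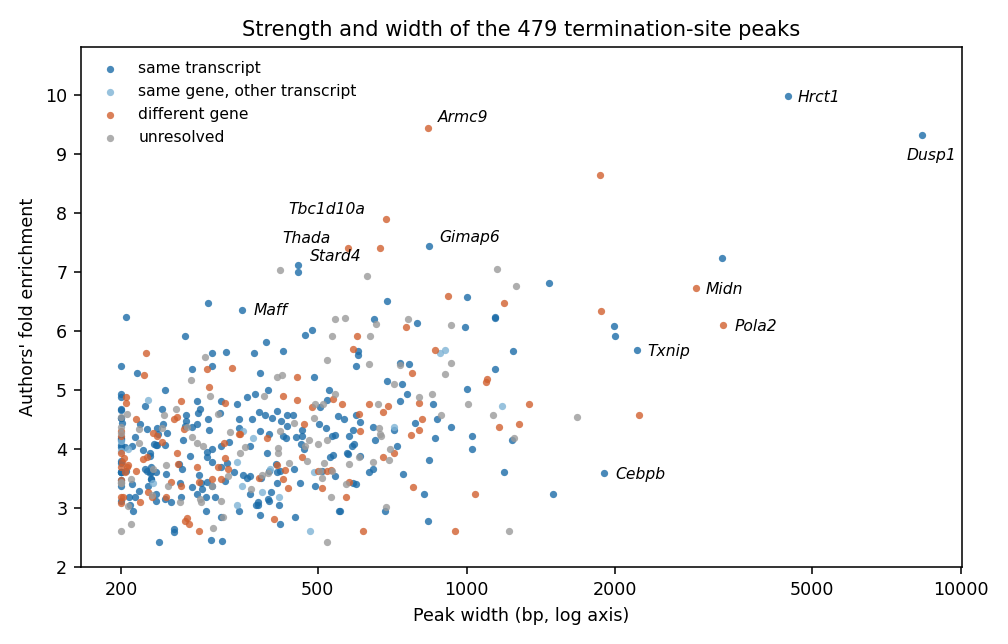
Width (bp, log axis) and the authors' fold enrichment of the 479 termination-site peaks, each a point coloured by the relation of the ending transcript to the nearest start. The label is the gene that ends at the peak. Most points lie under 1000 bp and under a fold enrichment of 6, with Hrct1 and Dusp1 both strong and wide, and Armc9 strong at 835 bp.

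Among unresolved transcripts, the strongest peaks carried the names of Leng9 (7.04, chr1:73720917-73722069) and of Bcl7c, a subunit gene of the SWI/SNF chromatin remodeller (7.04, chr1:199158779-199159198). The ending transcript at Bcl7c is a microRNA, as it is at Hspb6 (6.93, chr1:89007986-89008613), and the centres lay 137 and 182 bp past the respective starts. A further peak of 6.76 carried the name of Nfatc3, a transcription factor of the calcineurin pathway, 5059 bp before its start. For these peaks the ending gene has no name here, so only the nearest start is known.

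Distance from the start differed with the kind of transcript that ended at the peak. Protein-coding transcripts made up 339 of the 479 (70.8%), small RNAs 72 (15.0%), lincRNAs 47 (9.81%) and pseudogenes 16 (3.34%). Of the small RNAs, 35 were microRNAs, 22 small nuclear RNAs and 10 small nucleolar RNAs. In 64 of the 72 small RNA peaks the nearest start was that of the same transcript, at 104 to 1247 bp with a median of 502 bp. For the 132 protein-coding peaks of this relation the median was 6633 bp, and for 34 lincRNA peaks it was 3663 bp. Of the 91 same-transcript peaks within 1000 bp of the start, 60 were at small RNAs, 15 at protein-coding genes and 11 at pseudogenes. Fold enrichment differed little between kinds, with medians of 4.19 for protein-coding, 4.08 for small RNA, 4.10 for lincRNA and 4.03 for pseudogene ends. Named microRNA genes accounted for 9 of the 35 microRNA peaks, at 8 genes. They included Mir193a (fold enrichment 4.57), and 2 peaks at Mir3075.

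Genes that ended at a peak carried a promoter-class peak about as often as all genes with a peak. Of 353 resolved genes, 109 (30.9%, interval 26.3 to 35.9%) also had a promoter-class peak, against 30.5% of the 8554 genes that had any assigned peak. A peak of any class with its centre within 1000 bp of the start was found for 66.3% (interval 61.2 to 71%) against 52% of those genes. The peak at the end itself counts here where it lies that close, as did 91 same-transcript peaks and 1 at another transcript of the gene. The 66.3% is thus partly fixed by how the genes were chosen, and the share without these peaks was not computed. The 353 genes had a median of 3 assigned peaks against 2, and 80 (22.7%) had a single one against 45.0%. In 65 genes with a promoter peak and a peak at the same gene's end, the end was the stronger in 32 and the start in 33, with medians of 4.30 at the end and 4.22 at the start and a median difference (end minus start) of -0.347. The start was far stronger at Junb, an AP-1 transcription factor gene (8.07 against 4.26), at Dusp6, a phosphatase specific for ERK (8.06 against 4.43), at S1pr1, the sphingosine-1-phosphate receptor of endothelium (8.17 against 5), and at the ribosomal protein gene Rpl9 (6.61 against 3.15). The end was the stronger at a snoRNA gene with no name in the annotation (6.24 against 2.73), at a model of 7SK, the small nuclear RNA that holds P-TEFb inactive (5.66 against 2.79), and at a 5S rRNA model (6.99 against 4.39). At Echdc3, a relative of the enoyl-CoA hydratases, it was 4.58 against 3.18. These are the 4 genes at each extreme of the difference, without U-type small RNAs and models with accession-like or placeholder names, and they were singled out after their values were seen. Of 267 peaks at the end of the nearest gene, 47 were that gene's only peak, and of the other 220 the end peak was the strongest of the gene in 51 (23.2%).

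Termination-site peaks were seldom alone. Another peak lay within 5 kb of 340 of them (71.0%, interval 66.8 to 74.9%), against 71.7% of all peaks, and the 2 shares were close. Promoter and exon peaks had a neighbour less often, at 58.0% and 59.9%. The nearest neighbour of the 340 was intergenic in 99, intronic in 73, another termination-site peak in 64, a promoter peak in 56 and an exon peak in 48, and in 307 (90.3%) it carried the same nearest gene. Neighbours of the other classes were not counted in this way, so these values do not set the class apart. The 479 peaks mark 455 distinct transcript ends, so they are not independent of each other. Among the 23 transcripts with 2 or more peaks was Itpkb, an inositol trisphosphate kinase gene, with 3 peaks between 3.18 and 3.50, all named for the neighbouring Stum. Pairs were found at Id3, an inhibitor of helix-loop-helix factors (4.37 and 4.22), at Cldn5, the claudin of endothelial tight junctions (4.67 and 4.57), at Sema3g, a secreted semaphorin (4.32 and 3.94), and at Slc29a1, the equilibrative nucleoside transporter (2.73 and 2.44). The water channel gene Aqp1 ended at a pair of peaks of which one was named Aqp1 (4.01) and the other Ghrhr (4.30).

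Immediate-early and stress response genes, which are switched on within minutes to hours of a stimulus, were the list with most genes ending at a peak. They were 10 of 48 (20.8%, interval 11.7 to 34.3%), against 212 of 23154 protein-coding genes (0.916%). Genes with any assigned peak are the closer background, and there the values were 10 of 39 (25.6%, interval 14.6 to 41.1%) for the list and 3.38% for all protein-coding genes. List genes with a peak also had more of them, a median of 6 against 2. Among genes with 5 or more assigned peaks the share was 8 of 25 (32.0%, interval 17.2 to 51.6%) for the list and 7.48% for all protein-coding genes. Of 319 peaks assigned to list genes, 15 were termination-site peaks (4.70%, interval 2.87 to 7.61%), beside 1.67% of all peaks. The list was chosen with earlier results of these data known, and its counts are a description.

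The 10 genes were Dusp1, Dusp6, Junb, Maff, Cebpb, Ier3, Ier5l, Gadd45g, Ddit4 and Txnip. Their 12 end peaks had a median fold enrichment of 4.34, from 3.24 to 9.32, beside 4.09 for 137 other protein-coding peaks at the end of the nearest gene. They lay 504 to 11595 bp from the start with a median of 2517 bp, against 8707 bp for those others. The other 3 of the 15 carried a list gene only as the nearest start, namely Maff, Hspb1 (3.38, at the end of Ywhag) and Cebpd (987 bp, unresolved end). Another peak lay within 1000 bp of the start in 6 of the 10 genes, and 5 had a promoter-class peak.

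At Maff, a small MAF transcription factor gene, the end peak of 6.36 (chr7:120592163-120592514) followed peaks of 9.32 over the start and 6.18 in an exon, with a further termination-site peak of 4.59 beyond it that belongs to the end of Tmem184b. At Txnip, which encodes an inhibitor of thioredoxin and of glucose uptake, a peak of 9.49 covered 3580 bp before to 2440 bp after the start but is named for AABR07012592.1. The end peak followed from 2634 to 4849 bp with a fold enrichment of 5.68 (chr2:198685793-198688008). At Cebpb, a bZIP transcription factor gene, values ran from 3.28 in the promoter to 6.99 in the exon and 3.60 at the end. Ddit4, an inhibitor of mTORC1, had 6.52 at the promoter, 4.53 in an exon and 4.25 and 3.69 at its end, and its strongest peak (10.99) lay 17073 to 21035 bp upstream. Past the end of Ddit4 lay further peaks of 2.95, 4.58 and 4.09.

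**Figure D4:**
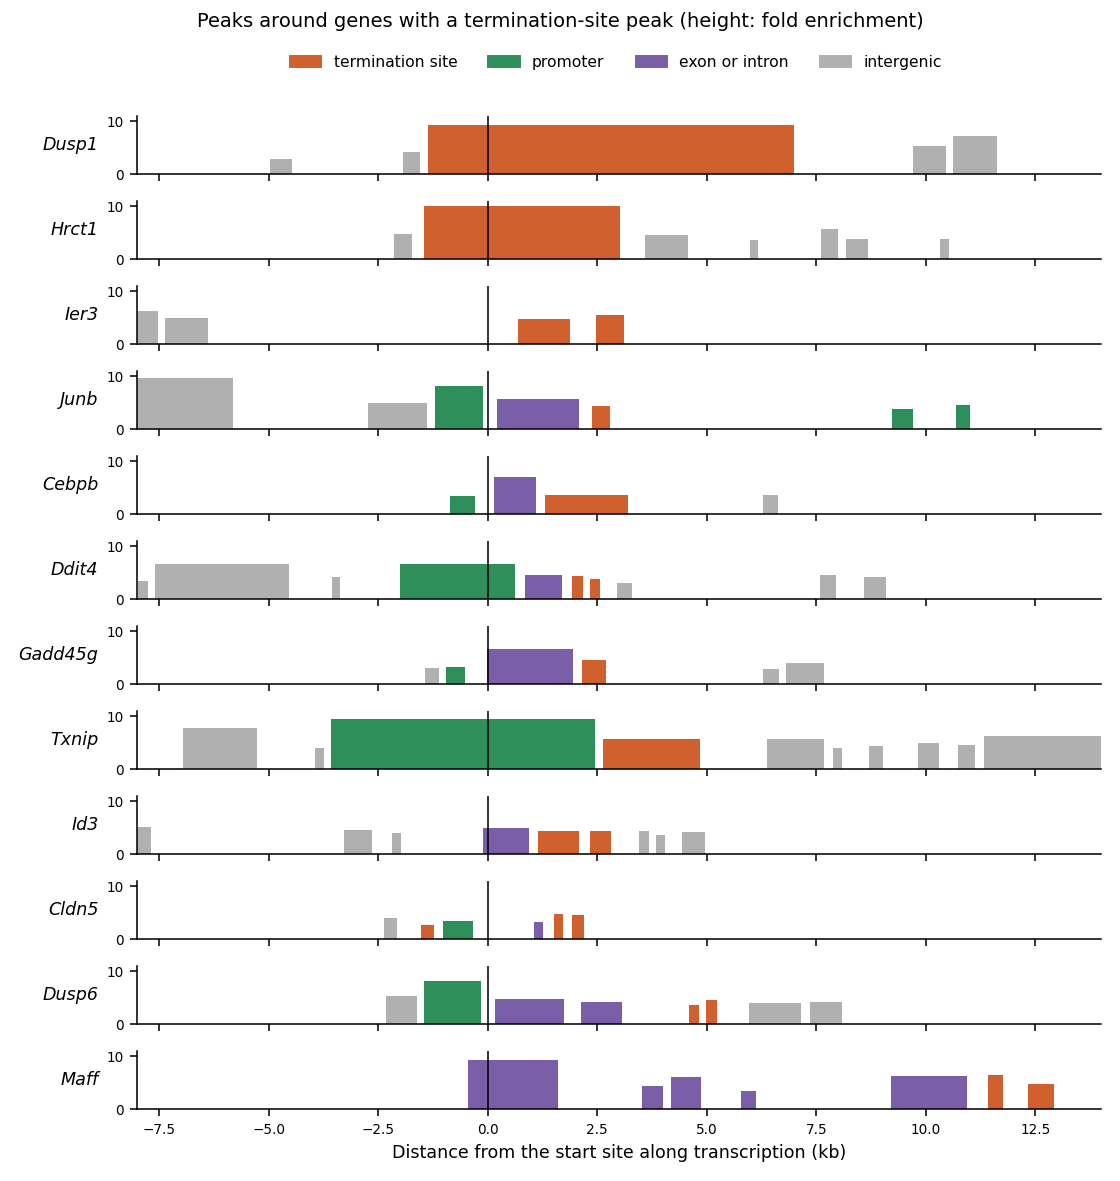
Peaks around 12 genes that end at a termination-site peak, drawn as boxes with their fold enrichment as height, by distance (kb) from the start along transcription, with peaks beyond the window left out. Orange boxes right of Ier3 and of Maff and left of Cldn5 include 1 each at the end of another transcript. Dusp1 and Hrct1 are each covered by 1 wide peak, and at Junb, Cebpb, Ddit4 and Gadd45g the end peak follows promoter and exon peaks.

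In each list of heart muscle or energy metabolism genes at most 2 genes ended at a peak, and the lists are short. Among sarcomere and Z-disc genes these were 2 of 25 (8%, interval 2.22 to 25%), beside the 0.916% of all protein-coding genes. Among genes with any assigned peak, the closer background, it was 2 of 19, beside 3.38% of all protein-coding genes. No interval was computed for the 2 of 19, so no difference is read from it. Tnnt2, cardiac troponin T, had a peak of 3.79 at its end, 13876 bp from the nearest Tnnt2 start. The end of Myh7, the slow myosin heavy chain, had one of 3.70, which carried the name AC130940.1. Unresolved ends also gave peaks nearest to Tnni3, cardiac troponin I (4.94, 497 bp past its start), and Ldb3, a Z-disc protein gene (3.38, 1104 bp before it).

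Of the glucocorticoid and clock genes 1 of 23 ended at a peak, Zbtb16, a zinc finger repressor induced by glucocorticoids, with 5.91 and the name Nnmt, whose start was 47059 bp ahead. The peak at the end of Zc3h7b was nearest to Tef, a PAR bZIP factor of the clock output (4.76). For fatty acid oxidation it was 1 of 22, Ech1, an auxiliary enzyme of beta-oxidation (4.62, named Lgals4), with Etfb, an electron transfer flavoprotein subunit, the nearest start of an unresolved end (4.22, 328 bp). Among housekeeping genes it was 1 of 23, the elongation factor gene Eef2 (4.88, named Dapk3). These single genes are 4.35, 4.55 and 4.35% of their lists, and the lower interval limits were 0.772, 0.807 and 0.772%. The 0.916% of all protein-coding genes lies inside each interval. Among genes with any assigned peak the counts were 1 of 22, 1 of 17 and 1 of 14, beside 3.38% of all protein-coding genes.

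Among the resolved ends, none belonged to the 17 calcium handling and ion channel genes, 29 mitophagy and autophagy genes or 25 glycolysis and lactate genes. Nor did any belong to the 25 respiratory chain or 18 hypertrophy genes. The upper limits of the 95% intervals were 18.4, 11.7, 13.3, 13.3 and 17.6%, so these counts allow shares well above the 0.916% of all protein-coding genes. Peaks elsewhere were assigned to 12 of the 17, 17 of the 29, 17 of the 25, 16 of the 25 and 14 of the 18, respectively. The remaining genes of each list had no assigned peak and so could not be counted as ending at one. A further 101 ends, 89 of them protein-coding, have no gene here and could belong to these lists.

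Markers of cell types were checked in the same way. Of 10 cardiomyocyte markers 6 had any assigned peak (Myh7, Tnnt2, Tnni3, Actc1, Pln and Mb), and none carried the names of Myh6, Ttn, Ryr2 or Nppa. The 2 that ended at a peak, Myh7 and Tnnt2, are 20% of the 10 (interval 5.67 to 51%), and both also belong to the sarcomere list. Of 11 endothelial markers 9 had a peak, and Kdr, the receptor for VEGF, ended at one (4.30, 57567 bp from its start). Kdr alone is 9.09% of the 11 (interval 1.62 to 37.7%), and 0.916% of all protein-coding genes ended at a peak. Among markers with any assigned peak, 2 of 6 cardiomyocyte and 1 of 9 endothelial ones ended at one, beside 3.38% of all protein-coding genes. Peaks were assigned to 3 of 10 fibroblast, 1 of 9 immune, 3 of 8 smooth muscle, 2 of 4 adipocyte and 1 of 3 neuronal markers. None of these genes was among the resolved ends, and markers with no assigned peak could not be counted there. The tissue is a mixture of cells, and in bulk chromatin a mark in few cells and a weak mark in many cannot be told apart.

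**Figure D5:**
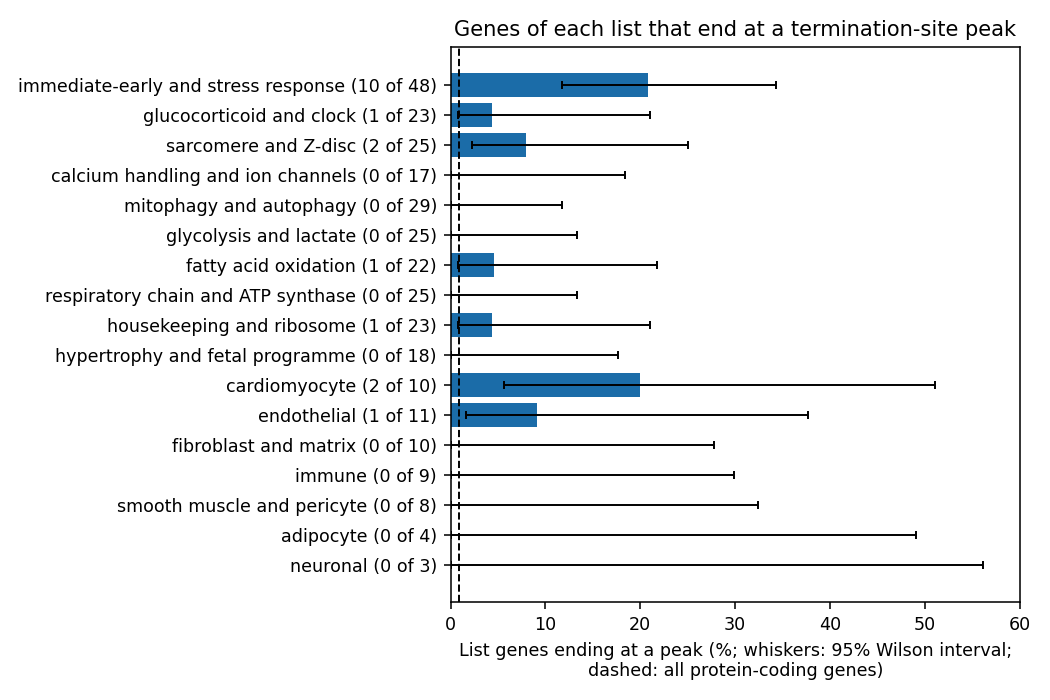
Share of genes (%) in each list that end at a termination-site peak, with 95% Wilson intervals as whiskers and the share of all protein-coding genes (0.916%) as a dashed line. The immediate-early and stress response list stands highest with 10 of 48 genes (20.8%), next to 2 of 10 cardiomyocyte markers (20%). Among genes with any assigned peak these were 10 of 39 and 2 of 6, so the order depends on the genes counted. The intervals of the short lists are wide.

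Over the chromosomes, the share of peaks that lay at termination sites ran from 1 of 234 on X (0.427%) and 7 of 975 on chromosome 14 (0.718%) to 51 of 2081 on chromosome 3 (2.45%) and 23 of 826 on chromosome 20 (2.78%).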

How the data were processed

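Peaks of 1 H3K18la ChIP library of rat myocardium were analysed. The tools HOMER, deepTools, MACS2, SAMtools, Bowtie2, Trim Galore and FastQC and the build rn6 are named per the submitters' processing notes, with no version. Per the file headers, peaks were annotated with annotatePeaks.pl and a gene annotation, from a call whose path names q 0.05. The authors deposited each peak's fold enrichment as a ratio over the local background of the caller. Deposited p and q are on the −log10 scale, per the file headers. In each of the 28706 peaks the deposited score was −log10 q times 10 without its decimals. These values were used only to describe, rank and filter peaks within the list. Depth is unknown, since the files hold no library totals, and whether samples were pooled is not stated.

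The annotation names a termination-site peak's transcript, not its gene. Transcripts were tied to genes through the annotation's own columns for nearest transcript and gene, which left 101 peaks unresolved. Only genes with an assigned peak could be tied in this way, also in the counts over gene lists and over all protein-coding genes. The sources used here do not give transcript ends or the window around them, so distances are to start sites. Starts and strands were inferred where at least 2 peaks gave the same start within 2 bp (4806 of 9360 transcripts). Names were matched to a RefSeq table of assembly GRCr8 (352 of 504 current symbols, 69.8%, 10 older symbols, 142 unmatched), used for names, gene lists and promoter or microRNA sequences. Sequences of the rn6 peaks were not used here. Shares have 95% Wilson intervals, which cover counting error only: peaks of 1 library are not replicates, and no test was made. Named peaks are the 12 strongest, the 6 widest, the 10 strongest with differing named genes, the 6 strongest and 4 most distant with the same gene, the strongest 2 of each gene list, genes with 2 or more peaks, and the 3 on each side of 1000 bp; others are given where a count or group is described. One peak that the rule names is not reported here. Peaks and lists were chosen with earlier results of these data known. Python 3.11.15, pandas 2.3.3, numpy 2.4.6, scipy 1.17.1 and matplotlib 3.10.9 were used, and the functions were tested on simulated data.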

Additional observations from a re-analysis of the deposited data

How the results depend on the processing

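Of 21 alternative values, 5 moved by less than the interval of the main value and 16 by more. With peaks of −log10 q of at least 5 (160 of the 479), the nearest start was that of the same gene in 50%, the centre lay within 1000 bp of a start in 37.5% (25% of all such peaks), another peak lay within 5 kb of 55.6% (52.6% of all), the bounds reached a start in 14.4% (10.6% of all), 17.4% of genes had a promoter peak and 24.4% of peaks had a fold enrichment of at least 6. Median fold enrichment was then 5.23 and median width 605 bp, as a filter on strength implies. With a fold enrichment of at least 4 (269 peaks), 56.5% had a neighbour within 5 kb (58.4% of all), 19.1% of genes had a promoter peak and the median width was 454 bp. The share within 3000 bp of a start was 53.0%. Neighbours within 1 kb and 20 kb were found for 54.1% and 86.0%. Any peak within 1000 bp of the gene's start, termination-site peaks included, was found for 66.3% of genes (52% of all genes with a peak), and a fold enrichment of at least 5 for 18.8% of peaks. Where no share over all peaks or genes stands beside a value at the same setting, none was computed. Such values describe the class alone and do not set it apart. No paired analysis was possible because the ChIP and input libraries share a number but only the ChIP library has values here, and no replicate could be left out of 1 library.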

Other observations

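A fold enrichment of at least 6 was reached by 1 of 16 pseudogene ends and 4 of 47 lincRNA ends. The share was 8.14% in the whole class and 6.31% over all peaks, and the peaks below are examples. The pseudogene AABR07071208.2 ended at a peak of 6.82 and 1469 bp (chr8:104654907-104656375), 356 bp from its start. The lincRNA model AABR07034455.1 ended at one of 6.21 and 1142 bp (chr11:72450245-72451386), 1185 bp from its start, and AABR07066875.1 at one of 5.93, the only peak assigned to that model. The single termination-site peak on X was at AABR07039133.2. A further 27 peaks of the list carry no annotation class and entered none of the counts by class.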
